A study of Mus musculus with 16 samples.

Results

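The RNAs of 9 growth factor receptor tyrosine kinases were followed in NIH/3T3 cells, an established line of mouse fibroblasts: Pdgfra, Pdgfrb, Fgfr1, Fgfr2, Egfr, Igf1r, Insr, Met and Axl. They were chosen by name as receptors through which fibroblasts sense growth factors, and all 9 were among the 13015 genes listed. The cells carried either a control siRNA (siControl) or an siRNA directed at Apc (siAPC), the gene of the adenomatous polyposis coli tumor suppressor, and an siRNA lowers its target without removing it. All cells, controls included, had been starved of serum, left for 2 h on a filter with pores of 3.0 µm, drawn downwards by lysophosphatidic acid (LPA) for 1 h and fixed for 10 min in 0.3% paraformaldehyde. Protrusions (Ps) were taken from below the filter and cell bodies (CB) from above it, so that each siRNA gave a Ps and a CB group, each of 4 libraries. The labels do not say what sets the replicates apart, so p-values measure only the spread between these libraries.

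Receptor tyrosine kinases span the plasma membrane once. A ligand outside the cell activates the receptors, and the kinase domains of a pair phosphorylate each other. Adaptor proteins docked on the phosphotyrosines pass the signal to Ras and MAP kinases, PI3 kinase and Akt, and phospholipase C gamma. In fibroblasts, PDGF and FGF drive division and migration, IGF-1 favours survival, and HGF, the ligand of Met, increases cell motility. PDGF receptors are the receptors by which fibroblasts of connective tissue are usually recognised, and Axl, which binds Gas6 bridged to phosphatidylserine, belongs to the family of Tyro3 and Mertk. Apc is best known as part of the complex that marks beta-catenin for degradation, and it also binds microtubules and RNAs.

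Igf1r, Fgfr2 and Pdgfra are shown by their upstream sequence because their RNAs differed between the siRNAs in the cell bodies, the first pair upwards and Pdgfra downwards. Pdgfrb differed there too and is not shown. The stretches are the 250 bases before the gene start that RefSeq gives on GRCm38.p6, written 5′ to 3′ on the strand of the gene, with each CG dinucleotide in capitals.
Igf1r: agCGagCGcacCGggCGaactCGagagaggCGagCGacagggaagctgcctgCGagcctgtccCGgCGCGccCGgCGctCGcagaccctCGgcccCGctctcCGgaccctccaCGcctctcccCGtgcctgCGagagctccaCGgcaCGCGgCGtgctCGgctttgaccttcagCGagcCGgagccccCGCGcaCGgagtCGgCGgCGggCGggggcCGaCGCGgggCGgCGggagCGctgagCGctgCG
Fgfr2: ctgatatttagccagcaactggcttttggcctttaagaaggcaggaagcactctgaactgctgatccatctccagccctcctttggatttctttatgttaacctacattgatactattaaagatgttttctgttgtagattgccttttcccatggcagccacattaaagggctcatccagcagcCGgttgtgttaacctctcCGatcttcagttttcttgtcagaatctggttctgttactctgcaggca
Pdgfra: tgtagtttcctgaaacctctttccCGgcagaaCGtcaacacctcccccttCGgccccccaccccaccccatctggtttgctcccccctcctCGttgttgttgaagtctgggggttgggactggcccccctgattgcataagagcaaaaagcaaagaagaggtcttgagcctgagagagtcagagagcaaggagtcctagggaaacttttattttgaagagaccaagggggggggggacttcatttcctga
These lie at chr7:67952007-67952256 on the plus strand, chr7:130266809-130267058 on the minus strand and chr5:75152001-75152250 on the plus strand. The Igf1r stretch held 42 CG dinucleotides, more than 99.1% of the 32851 stretches in the table, whose median was 6. The Fgfr2 stretch held 2 and the Pdgfra stretch 4. The word CTTTGAT, a form of the site bound by TCF and LEF factors, was searched on both strands. So was CTTTGTT, a further form. The remaining forms searched were CTTTGAA as the third and CTTTGTA as the last. None of the 3 stretches held any of these words, and neither did those of Egfr, Met and Axl, while 14.8% of all stretches held at least 1. The table gives a single start per gene, and it was matched for 6 of the 9 members, not for Pdgfrb, Fgfr1 and Insr. For Fgfr2 that start differs from the end of the GENCODE gene model given further on (133123350), so its stretch lies inside that model.

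The libraries held 13466225 to 20296087 reads in listed genes. Values are the deposited log2 CPM (counts of a gene relative to the scaled size of its library). A gene with 3 reads has a log2 CPM between -2.73 and -1.80. Apc fell to 31.3% of its siControl level in CB (log2 fold change -1.67 ± 0.25 SE, limma adjusted p = 0.00014) and to 27.9% in Ps (-1.84 ± 0.25 SE, adjusted p = 3.1e-05). Of 10 fibroblast markers 9 were listed, with a summed level of 38148 to 41530 CPM in siControl CB, 48234 to 53427 in siAPC CB, 22822 to 25240 in siControl Ps and 27821 to 30399 in siAPC Ps. With siAPC, 4 of these 9 rose and 0 fell in either fraction, where 7.52% of all genes rose and 5.87% fell in CB and 10.7% and 11.2% in Ps, and the part of this in the receptor changes was not tested. Thy1 was near the floor, and Lum is not listed. Of 5 endothelial markers only Pecam1 was listed, at under 0.75 CPM, and of 5 leukocyte markers only Cd68, at 3.58 to 6.41 CPM, while Ptprc, Kdr and Cdh5 are not listed. Among 8 epithelial markers Cdh1, Krt8 and Krt14 were listed and Epcam was not, with a sum that was nearly all Krt14. The nuclear RNAs Malat1, Neat1 and Kcnq1ot1 summed to 644 to 897 CPM in siControl CB and 127 to 309 CPM in siControl Ps. With siAPC they summed to 423 to 574 CPM in CB and 105 to 239 CPM in Ps. The share of mitochondrial RNAs was 1.39% to 1.95% in siControl CB and 2.65% to 4.16% in siControl Ps. In siAPC it was 1.37% to 1.63% in CB and 2.18% to 2.86% in Ps. The part of either in the Ps/CB values or the siRNA changes was not tested. In 4 libraries (siControl CB replicate 3 and replicate 2 of each other group) values relative to their group fell with GC content (Spearman -0.523 to -0.645 across 10234 genes), and results were also computed without them. Other libraries rose with GC content, at up to 0.536 in siAPC CB replicate 3, and were kept.

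Axl was the most abundant of these receptor RNAs per length of exon and Fgfr2 the least. In siControl CB, the mean log2 CPM per kb of exon was 7.60 ± 0.095 for Axl (SD, n = 4), 5.86 ± 0.046 for Pdgfrb, 4.82 ± 0.053 for Fgfr1 and 3.08 ± 0.21 for Pdgfra. Igf1r followed at 1.63 ± 0.066, Met at 0.48 ± 0.71, Insr at -0.24 ± 0.19, Egfr at -0.94 ± 0.27 and Fgfr2 at -2.57 ± 0.15. Axl thus stood at 194 CPM per kb and Fgfr2 at 0.169 CPM per kb, or at 229 and 0.394 by the longest transcript. Of the 8 pairs of neighbours in this order, 7 were apart by more than the sum of their SDs, and Met and Insr were not (0.72 against 0.90). By the longest transcript Pdgfrb and Fgfr1 were not apart either, at 5.87 and 5.79 (a gap of 0.080 against 0.10), so their order rests on the length used. Length here is all exon sequence of a gene in GENCODE, and these levels are a description without a test.

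**Figure D1:**
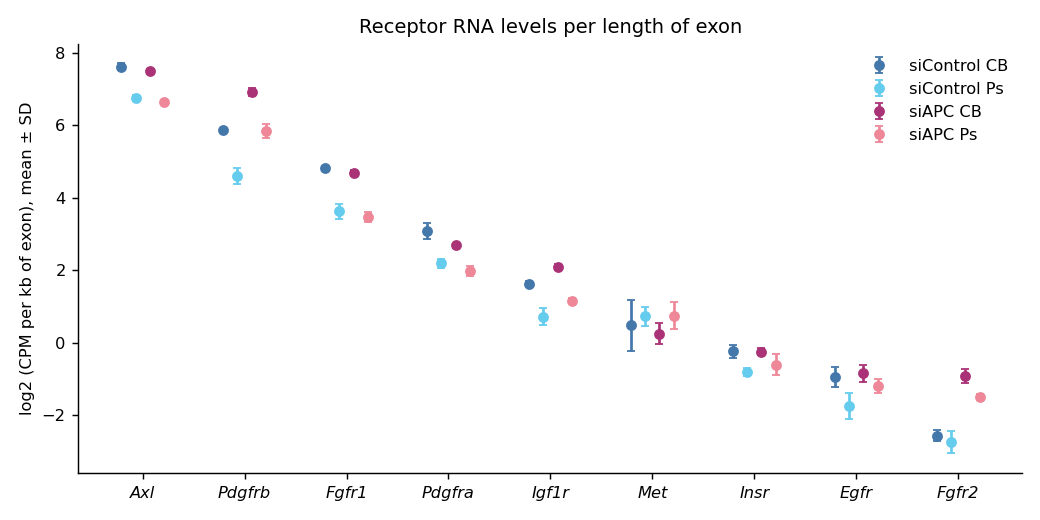
Level of each receptor RNA as log2 of CPM per kb of exon (vertical axis), with genes ordered by siControl CB; points are means of 4 libraries and bars are SDs, by group. Axl leads in all 4 groups, Pdgfrb of siAPC CB reaches 6.91, and Fgfr2 rises from -2.57 in siControl CB to -0.92 in siAPC CB.

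By exon length the order was that of siControl CB in every group but siControl Ps, where Met and Igf1r changed places. The gaps within its leading pair and its last pair were narrower in siAPC CB. In siAPC CB, Pdgfrb reached 6.91 ± 0.11 against 7.50 ± 0.05 for Axl (log2 CPM per kb, SD), a gap of 0.59 where siControl CB had 1.74. Egfr and Fgfr2, apart by 1.63 in siControl CB, differed by 0.07 in siAPC CB, less than their summed SDs of 0.43. In siControl Ps, Met at 0.73 ± 0.26 and Igf1r at 0.72 ± 0.24 did not differ beyond their spread. Fgfr2 was last in every group by exon length, whereas by the longest transcript Egfr was last in all groups but siControl CB, and without the 4 libraries that fell with GC content Egfr was last in siAPC CB.

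**Figure D2:**
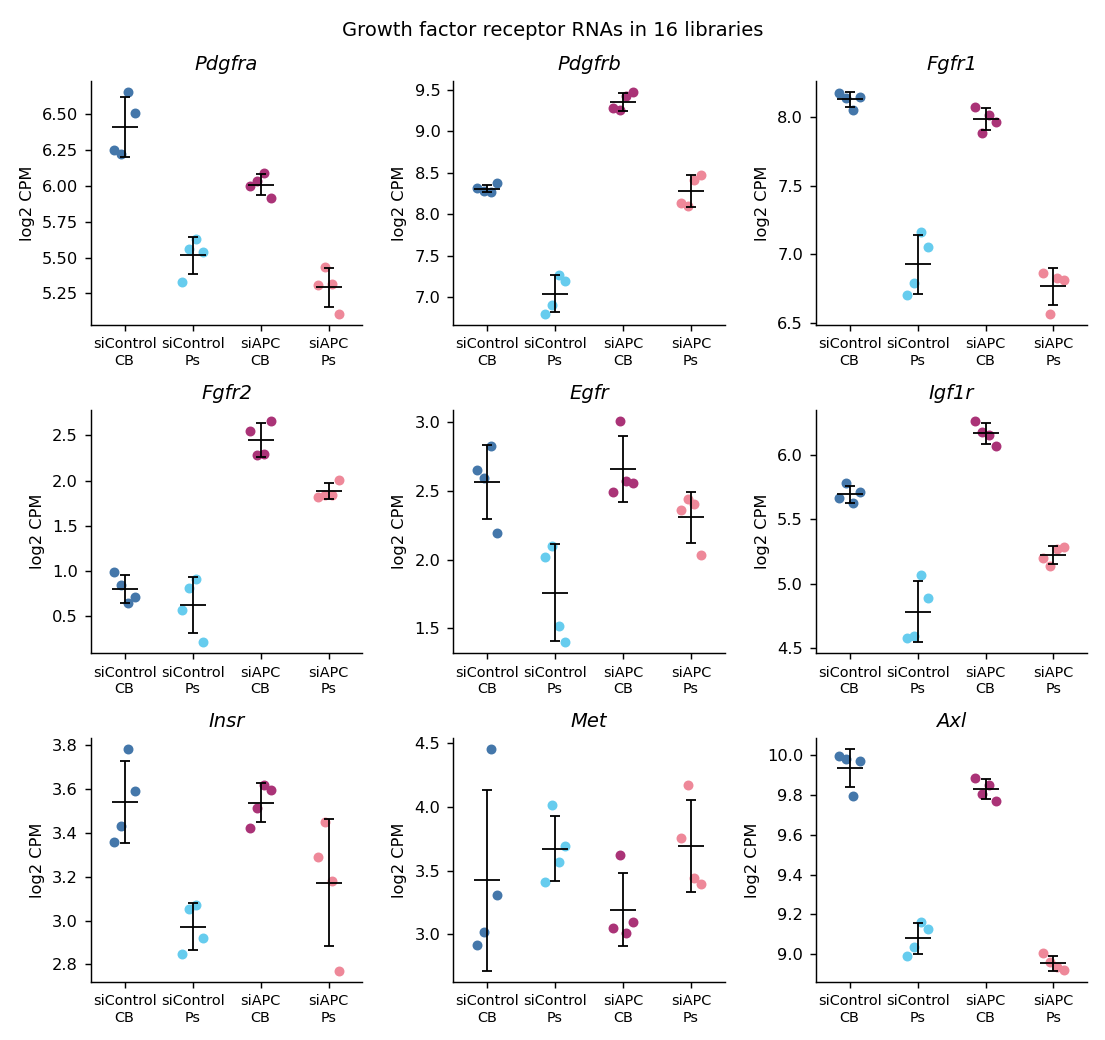
Deposited log2 CPM (vertical axis, own scale per gene) of the 9 receptor RNAs in 16 libraries; points are libraries, from replicate 1 on the left to 4 on the right, and black bars are the mean ± SD of a group. The siAPC points of Pdgfrb, Fgfr2 and Igf1r lie above the siControl points of the same fraction, and 1 siControl CB point of Met lies apart at 4.46.

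Whether these RNAs favour the protrusion was asked by comparing Ps with CB within each siRNA. In siControl, 7 of the 9 were lower in Ps: Pdgfra, Pdgfrb, Fgfr1, Egfr, Igf1r, Insr and Axl, at 41.5% to 67.4% of their CB level. None was called higher, and Fgfr2 and Met did not pass the test (an adjusted p below 0.05 in limma over all 13015 genes). Over all genes, 31.2% were lower and 29.1% higher, so being lower in Ps is common, and the median of the 9 log2 fold changes was -0.85 where the median of all genes was 0.00. In siAPC again 7 were lower, now with Fgfr2 (adjusted p = 0.0071) and without Egfr (adjusted p = 0.10), beside 30.9% lower and 29.8% higher over all genes. The median of the 9 was -0.72 in siAPC and that of all genes 0.01. These values set each RNA against the others of its fraction after a scaling between libraries, and are not plain shares of reads. Scaled to the total of listed reads, the median of all genes was -0.30 in siControl and -0.14 in siAPC. Whether a cell holds less of an RNA in its protrusion or more of other RNAs there cannot be told apart.

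**Figure D3:**
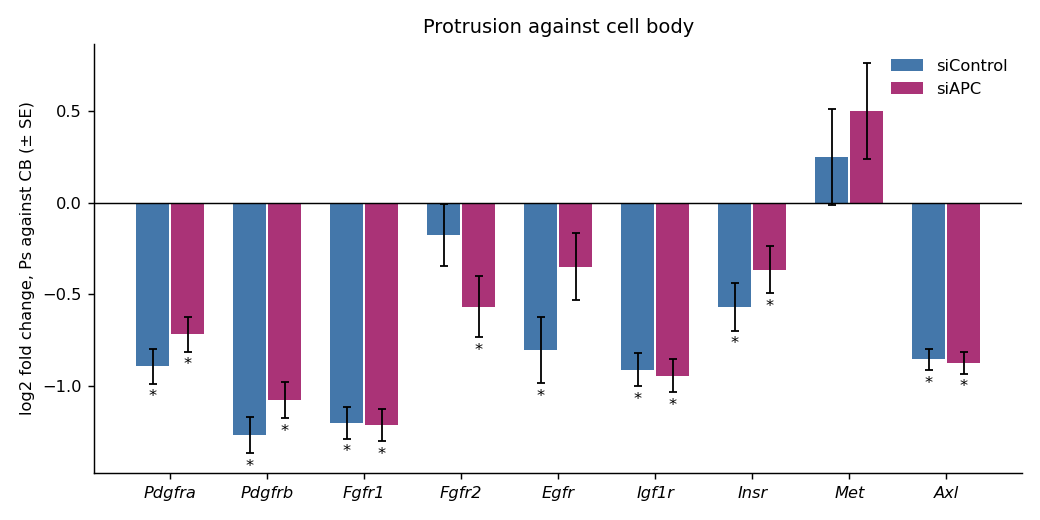
Log2 fold change of Ps against CB (vertical axis) for each receptor in siControl and siAPC; bars are limma estimates, whiskers are SEs, and an asterisk marks an adjusted p below 0.05. Pdgfrb and Fgfr1 lie below -1 with both siRNAs, and Met is the gene with positive values in both, without passing the test.

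Whether Apc siRNA changed the receptor RNAs was asked within each fraction. In CB, Pdgfrb, Fgfr2 and Igf1r rose and Pdgfra fell, 3 higher and 1 lower of 9, where 7.52% of all genes were higher and 5.87% lower. In Ps, Pdgfrb, Fgfr2, Igf1r and Egfr rose and none fell, where 10.7% of all genes were higher and 11.2% lower. The Egfr call in Ps was lost with voom weights and without any 1 of several single libraries. The median log2 fold change of the 9 was 0.00 in CB and 0.20 in Ps, and that of all genes -0.04 and -0.02. Insr, Met, Axl and Fgfr1 were called in neither fraction. After a loess correction for GC content and length, however, Fgfr1 and Axl were called lower in both. Receptors lower with siAPC then numbered 3 in CB and 3 in Ps. None of the 9 differed in its Ps/CB ratio between the siRNAs, by the interaction of siRNA and fraction, with adjusted p of 0.98 or more. Over all genes this interaction called 0% higher and 0.0231% lower, so calls were rare throughout.

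**Figure D4:**
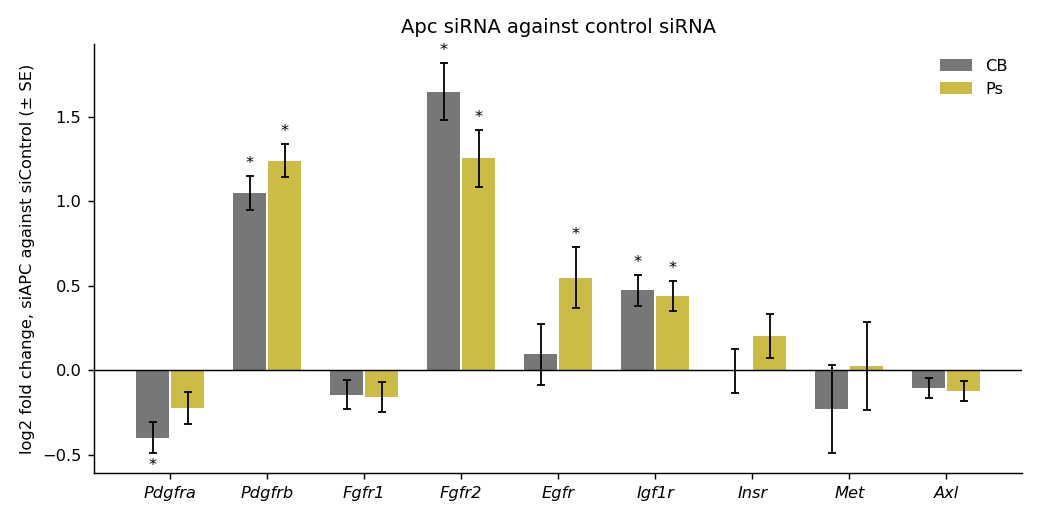
Log2 fold change of siAPC against siControl (vertical axis) for each receptor in CB and Ps; bars are limma estimates, whiskers are SEs, and an asterisk marks an adjusted p below 0.05. Fgfr2 and Pdgfrb exceed 1 in both fractions and Igf1r lies between 0.4 and 0.5, while Pdgfra lies below 0.

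Pdgfrb, the receptor that binds PDGF-BB, was raised about as much by Apc siRNA as it was lowered in protrusions. Its gene lies on chromosome 18, and reads numbered 1389 to 13444 per library. In siControl its log2 CPM was 8.32, 8.28, 8.27 and 8.37 in CB and 6.80, 6.91, 7.26 and 7.20 in Ps. The siAPC values were 9.28, 9.26, 9.43 and 9.47 in CB and 8.14, 8.10, 8.42 and 8.48 in Ps. No siAPC library overlapped with siControl of the same fraction, no Ps library overlapped with CB of the same siRNA, and siAPC Ps lay at about the level of siControl CB. The rise with Apc siRNA was 2.07-fold in CB (log2 1.05 ± 0.099 SE, adjusted p = 4.7e-07) and 2.36-fold in Ps (1.24 ± 0.099, adjusted p = 3.8e-08). In Ps it stood at 41.5% of CB in siControl (-1.27 ± 0.099, adjusted p = 2.9e-09) and 47.4% in siAPC (-1.08 ± 0.099, adjusted p = 3.0e-08). After a loess correction for GC content and length the last values were -0.72 and -0.50, still called. The Ps/CB log2 ratios differed by 0.19, with a 95% interval of -0.10 to 0.48.

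Pdgfra, which binds PDGF-AA and PDGF-CC as well as PDGF-BB, moved the other way with Apc siRNA. It lies on chromosome 5 (75152292 to 75198215, plus strand), and 4.55% of its exon length overlaps an antisense gene that is not listed. Its log2 CPM was 6.25, 6.22, 6.65 and 6.51 in CB and 5.33, 5.56, 5.63 and 5.54 in Ps of siControl. Those of siAPC were 6.0, 6.03, 6.09 and 5.92 in CB and 5.31, 5.43, 5.32 and 5.11 in Ps. The CB libraries of the siRNAs did not overlap, whereas those of Ps did. The CB level fell to 75.8% (log2 -0.40 ± 0.094 SE, adjusted p = 0.0071). The Ps level was 85.7% of siControl and did not pass (-0.22 ± 0.094, adjusted p = 0.10), but it did without siControl Ps replicate 1 (-0.28, adjusted p = 0.049) and after loess (-0.29, adjusted p = 0.0021). Same-numbered Ps libraries were higher with siAPC in 0 of 4 pairs, with differences from -0.43 to -0.023. The replicate block did not call Pdgfra in Ps either. In Ps it was 53.9% of CB in siControl (-0.89 ± 0.094, adjusted p = 1.4e-07) and 60.8% in siAPC (-0.72 ± 0.094, adjusted p = 2.7e-06).

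Fgfr2 had the largest rise of the 9 with Apc siRNA in CB, from a low level, and in Ps it rose about as much as Pdgfrb. This FGF receptor is known mainly from epithelia, where splicing to its IIIb form lets it bind FGF7 and FGF10, while mesenchymal cells make the IIIc form. Counts per gene do not tell these forms apart. Its gene model lies on chromosome 7 (130162451 to 133123350, minus strand), and 3.04% of its exon length is shared with Ctbp2 on the same strand. Log2 CPM in siControl was 0.99, 0.84, 0.65 and 0.72 in CB (30 to 36 reads) and 0.57, 0.81, 0.91 and 0.22 in Ps (16 to 28 reads). After Apc siRNA it was 2.55, 2.29, 2.30 and 2.66 in CB (95 to 126 reads) and 1.82, 1.85, 1.85 and 2.01 in Ps (53 to 68 reads). Every siAPC library lay above every siControl library, in either fraction. The rise was 3.13-fold in CB (log2 1.65 ± 0.17 SE, adjusted p = 1.4e-06) and 2.39-fold in Ps (1.25 ± 0.17, adjusted p = 2.3e-05). The epithelial markers summed to 268 to 354 CPM in siControl CB and 384 to 395 in siAPC CB, and to 263 to 313 in siControl Ps and 305 to 342 in siAPC Ps. Of the 3 listed, 1 rose with siAPC in CB (7.52% of all genes) and 0 in Ps (10.7%), none fell, and their part in the rise of Fgfr2 was not tested. Ctbp2 itself was at -0.17 ± 0.071 in CB and -0.15 ± 0.071 in Ps, neither called.

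The Ps/CB ratio of Fgfr2 changed sign or call with the processing. In siControl the fractions overlapped, at -0.17 ± 0.17 SE on the log2 scale (adjusted p = 0.39, 95% interval -0.53 to 0.18). Loess turned this to 0.09, and scaling to the total of listed reads made it -0.47 and called (adjusted p = 0.019). In siAPC the fractions did not overlap, at -0.57 ± 0.17 (adjusted p = 0.0071), but loess left -0.31 and no call (adjusted p = 0.11). The difference of the ratios was -0.39 ± 0.24, with a 95% interval of -0.89 to 0.11.

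Fgfr1, the main FGF receptor of mesenchymal cells, was among the lowest of all genes in Ps/CB ratio, with 4.0% of genes below it in siControl and 2.6% in siAPC. The gene is on chromosome 8 (25513654 to 25575718, plus strand). The siControl libraries had 8.18, 8.14, 8.05 and 8.14 log2 CPM in CB and 6.71, 6.79, 7.16 and 7.05 in Ps. The siAPC libraries had 8.07, 7.88, 8.01 and 7.96 in CB and 6.86, 6.57, 6.83 and 6.81 in Ps. The fractions stood well apart with both siRNAs, and the siRNAs overlapped within both fractions. Ps held 43.6% of the CB level in siControl (log2 -1.20 ± 0.088 SE, adjusted p = 1.2e-09) and 43.1% in siAPC (-1.21 ± 0.088, adjusted p = 1.6e-09). Loess reduced these to -0.65 and -0.63, both called. Apc siRNA gave -0.15 ± 0.088 in CB (adjusted p = 0.32) and -0.16 ± 0.088 in Ps (adjusted p = 0.22), which loess moved to -0.27 and -0.25 and called.

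Igf1r, the IGF-1 receptor, rose in both fractions with Apc siRNA. Chromosome 7 carries it (67952827 to 68233668, plus strand). Log2 CPM in siControl was 5.67, 5.78, 5.63 and 5.71 in CB and 4.58, 4.59, 5.07 and 4.89 in Ps. With Apc siRNA its values were 6.27, 6.18, 6.16 and 6.07 in CB and 5.20, 5.14, 5.27 and 5.29 in Ps. Within a fraction the siRNAs did not overlap, although siControl Ps replicate 3 came within 0.1 of the lowest siAPC Ps library. The rise was 1.39-fold in CB (log2 0.47 ± 0.09 SE, adjusted p = 0.0013) and 1.36-fold in Ps (0.44 ± 0.09, adjusted p = 0.0015). Ps held 53.2% of the CB level in siControl (-0.91 ± 0.09, adjusted p = 6.0e-08) and 52.0% in siAPC (-0.94 ± 0.09, adjusted p = 4.7e-08), with -0.56 and -0.60 after loess, both called.

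Insr, the insulin receptor and closest relative of Igf1r, was not called between the siRNAs. Its gene is on chromosome 8 (3122061 to 3279617, minus strand). Control libraries had a log2 CPM of 3.36, 3.43, 3.78 and 3.59 in CB and 2.85, 3.05, 3.07 and 2.92 in Ps. Those with Apc siRNA had 3.42, 3.51, 3.62 and 3.59 in CB and 3.29, 3.45, 3.18 and 2.77 in Ps. The fractions were apart in siControl and overlapped in siAPC, where Ps replicate 2 lay above CB replicate 1, and Ps replicate 4 was the lowest. Apc siRNA gave 0.00 ± 0.13 SE in CB (log2, 95% interval -0.28 to 0.27) and 0.20 ± 0.13 in Ps (-0.07 to 0.47). Ps held 67.4% of CB in siControl (-0.57 ± 0.13, adjusted p = 0.00091), which scaling to total reads made -0.87. In siAPC it held 77.7% (-0.36 ± 0.13, adjusted p = 0.021), but without siAPC Ps replicate 4 the value was -0.23 (adjusted p = 0.098), and the call was also lost without siAPC CB replicate 3 (-0.34) or 4 (-0.35).

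Egfr, the receptor of EGF, HB-EGF and their relatives, was a low RNA with 37 to 164 reads per library. Its position is on chromosome 11 (16752203 to 16918158, plus strand). Without Apc siRNA the log2 CPM was 2.65, 2.59, 2.82 and 2.19 in CB and 2.02, 2.10, 1.52 and 1.40 in Ps. With it, the values were 2.49, 3.01, 2.57 and 2.56 in CB and 2.36, 2.44, 2.4 and 2.03 in Ps. Ps and CB did not overlap with either siRNA, and the Ps fractions of the siRNAs overlapped at 1 library of siAPC, replicate 4. Ps held 57.3% of CB in siControl (log2 -0.80 ± 0.18 SE, adjusted p = 0.00080). In siAPC it held 78.5% (-0.35 ± 0.18, adjusted p = 0.10), a value that was called after quantile normalization (-0.48), total scaling (-0.50) and loess (-0.46). With Apc siRNA, Ps rose 1.46-fold (0.55 ± 0.18, adjusted p = 0.036). That call was lost without siControl Ps replicate 3 (0.47) or 4 (0.43), without siAPC Ps replicate 1 (0.53), 2 (0.50) or 3 (0.52), and with voom weights (0.57, adjusted p = 0.056). CB changed by 0.09 ± 0.18, which did not pass. The Ps/CB log2 ratio differed by 0.45 ± 0.26 between the siRNAs (unadjusted p = 0.092, 95% interval -0.08 to 0.99).

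Met, the HGF receptor, was alone among the 9 in having a Ps/CB ratio above 1 with both siRNAs, but 1 library decided the test. It lies on chromosome 6 (17463800 to 17573980, plus strand). Log2 CPM in siControl was 2.91, 3.02, 4.46 and 3.31 in CB and 3.41, 4.01, 3.56 and 3.69 in Ps. In siAPC it was 3.05, 3.62, 3.01 and 3.10 in CB and 3.76, 4.17, 3.44 and 3.40 in Ps. The siControl CB value of 4.46, from 509 reads against 126 to 183 in the other CB replicates, came from replicate 3, a library that fell with GC content. With all libraries the log2 ratio was 0.25 ± 0.26 SE in siControl (adjusted p = 0.43) and 0.50 ± 0.26 in siAPC (adjusted p = 0.11). Without siControl CB replicate 3 it was 0.59 in siControl (adjusted p = 0.011) and still 0.50 in siAPC, now called (adjusted p = 0.019) since the spread is shared. Same-numbered libraries of siAPC had a higher Ps value in 4 of 4 pairs, by 0.30 to 0.71, and with the replicate block the adjusted p was 0.0504, just short of a call. With the 4 libraries that fell with GC content left out it was 0.48 with both siRNAs (adjusted p = 0.0037 in each), whereas total scaling gave -0.05 in siControl. Apc siRNA gave -0.23 ± 0.26 in CB and 0.02 ± 0.26 in Ps, neither called.

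Axl, the Gas6 receptor, was the receptor measured most precisely, with 6341 to 20593 reads per library. It lies on chromosome 7 (25757273 to 25788705, minus strand). The log2 CPM of siControl was 9.99, 9.98, 9.79 and 9.97 in CB and 8.99, 9.04, 9.16 and 9.13 in Ps. That of siAPC was 9.88, 9.80, 9.85 and 9.77 in CB and 9.01, 8.96, 8.94 and 8.92 in Ps. Fractions were far apart and the siRNAs overlapped. Ps held 55.3% of CB in siControl (log2 -0.85 ± 0.059 SE, adjusted p = 6.8e-10) and 54.7% in siAPC (-0.87 ± 0.059, adjusted p = 8.9e-10), and the ratios differed by -0.02 with a 95% interval of -0.19 to 0.16. After loess both ratios were -0.41 and called. Apc siRNA gave -0.11 ± 0.059 in CB (adjusted p = 0.27) and -0.12 ± 0.059 in Ps (adjusted p = 0.15), which loess moved to -0.22 and -0.21 and called, while quantile normalization turned both signs (0.09 and 0.01).

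The members shared long transcripts and differed in GC content. All 9 had a longest transcript above the median of 3449 bases of 9800 coding genes, from 4265 bases in Axl to 11409 in Igf1r. In the transcript with the longest coding sequence, the 3′ UTR had 7270 bases for Igf1r and 253 for Fgfr2. GENCODE lists 6 transcripts for Igf1r and 27 for Fgfr2, and the 3′ UTRs of the others were not compared. GC content ran from 44.4% in Egfr to 55.4% in Fgfr1, around a median of 50.1%. Across 10234 genes, the Ps/CB log2 ratio in siControl had a Spearman correlation of -0.376 with GC content and -0.311 with length, where points share libraries and depth. The loess correction took these to -0.010 and -0.041. After it, the log2 ratio of Axl in siControl was 48.0% of its deposited size, that of Fgfr1 54.0% and that of Pdgfrb 56.7%, while that of Egfr stayed at 98.4%.

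**Figure D5:**
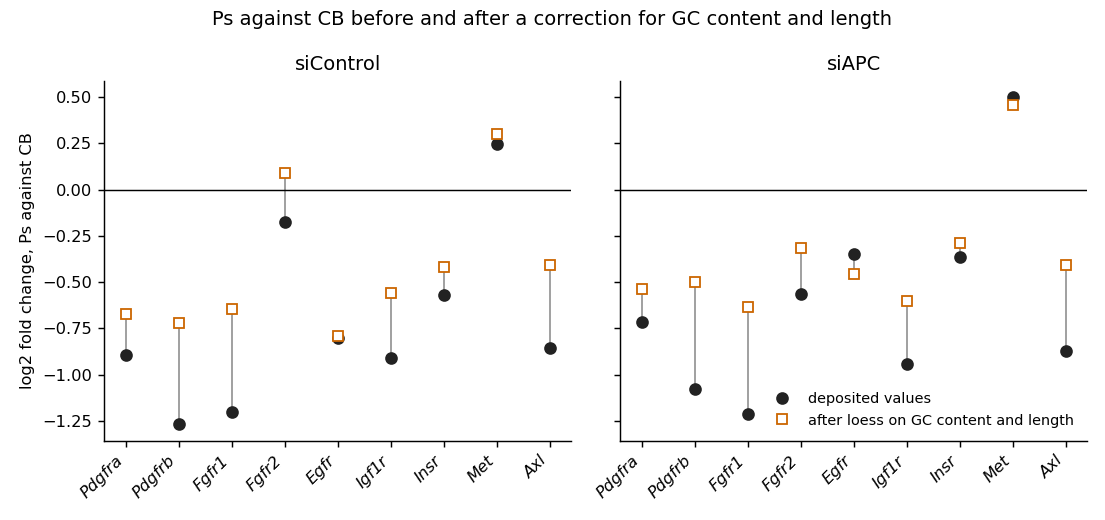
Log2 fold change of Ps against CB (vertical axis) of each receptor in siControl (left) and siAPC (right), from the deposited values (filled circles) and after a loess correction for GC content and transcript length (open squares). In siControl, Pdgfrb moves from -1.27 to -0.72 and Axl from -0.85 to -0.41, while Egfr and Met hardly move.

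Of 25 ligand genes of these receptors only 11 were listed, and Hgf, Gas6 and Igf2 were not. With Apc siRNA, 4 of the 11 rose in CB and 1 fell, where 7.52% of all genes rose and 5.87% fell, and in Ps 4 rose and 0 fell, beside 10.7% and 11.2%. The rises in both fractions include Igf1, which had 1 read in siControl CB and 5 in siControl Ps and may pass a filter on low values only through siAPC. Pdgfa, a PDGF chain, rose by 0.40 ± 0.12 SE on the log2 scale in CB (adjusted p = 0.030) and 0.44 ± 0.12 in Ps (adjusted p = 0.011). Hbegf, an EGF receptor ligand, rose by 1.14 ± 0.37 in CB (adjusted p = 0.048) and 1.09 ± 0.37 in Ps (adjusted p = 0.041). The CB calls of both genes were lost without several single libraries, siAPC CB replicates 3 and 4 among them, at adjusted p of up to 0.12 for Pdgfa and 0.14 for Hbegf. The Ps call of Hbegf was lost as well, at 0.59 without siControl Ps replicate 1 (adjusted p = 0.13). Pros1, the ligand protein S of Tyro3 receptors, fell by 0.49 ± 0.15 in CB (adjusted p = 0.035), which was lost without any 1 of the siAPC CB libraries or siControl CB replicate 3 or 4. In Ps against CB of siControl, 1 ligand was higher and 3 lower (29.1% and 31.2% of all genes). The higher one was again Igf1, under the floor of 3 reads in every siControl library, and its call rests on those values. The lower ones included Pros1 (-0.66 ± 0.15, adjusted p = 0.00088) and Pdgfc (-0.22 ± 0.085, adjusted p = 0.031), but Pdgfc was at -0.02 after loess and -0.52 with total scaling, and its call was lost without siControl CB replicate 3 or 4 or siControl Ps replicate 1 or 3. In siAPC, Fgf7 was higher in Ps (0.68 ± 0.24, adjusted p = 0.022), but loess turned it to -0.11, and the call was lost without siAPC CB replicate 1 or 3 or siAPC Ps replicate 1.

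The IGF binding proteins, which hold IGFs outside the cell, were called in all 3 listed members of 6, of which 2 rose and 1 fell in either fraction, where 7.52% of all genes rose and 5.87% fell in CB and 10.7% and 11.2% in Ps. Igfbp4 rose 1.74-fold with Apc siRNA in CB (log2 0.80 ± 0.083 SE, adjusted p = 1.7e-06) and 1.72-fold in Ps (adjusted p = 1.7e-06). Igfbp7 rose 1.67-fold in CB (0.74 ± 0.074, adjusted p = 1.0e-06) and 1.74-fold in Ps (adjusted p = 2.9e-07). Igfbp6 fell to 0.80 of its level in CB (-0.32 ± 0.072, adjusted p = 0.0045) and to 0.77 in Ps (log2 -0.38, adjusted p = 0.00069), the latter at -0.18 with quantile normalization and -0.22 with total scaling. Between fractions Igfbp6 and Igfbp7 were lower in Ps with both siRNAs, at -0.44 and -0.27 in siControl (31.2% of all genes were lower). Total scaling made these -0.74 and -0.57, and quantile normalization made that of Igfbp6 -1.14, while in siAPC Igfbp7 was no longer called without siAPC CB replicate 4 (-0.18) or after quantile normalization (-0.12). Igfbp4 was higher in Ps, at 0.29 ± 0.083 in siControl, but total scaling turned this to -0.0061, while loess raised it to 0.73. Quantile normalization turned it to -0.45, called lower (adjusted p = 1.4e-06). In siAPC it was at 0.27 ± 0.083, and quantile normalization turned it to -0.41, again called lower (adjusted p = 5.7e-06). Total scaling left 0.12 there and no call (adjusted p = 0.081).

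Genes that pass the signal on had shares of calls near those of all genes. Of 38 adaptors and effectors 37 were listed, and in Ps against CB of siControl 13 were higher, 13 lower and 11 not called, where 29.1% of all genes were higher and 31.2% lower, with a median log2 ratio of -0.02. Irs2, which docks on the insulin and IGF-1 receptors, was among the lowest at -1.55 ± 0.24 SE (adjusted p = 1.5e-05) and -1.98 ± 0.24 in siAPC (adjusted p = 8.6e-07), which loess moved to -0.90 and -1.29. Frs3, an FGF receptor substrate, was at -1.34 ± 0.23 in siControl (adjusted p = 6.6e-05), and the adaptor Crkl was at -1.13 ± 0.14 (adjusted p = 9.1e-07). Outside the rule for named genes, the higher ones in siControl included Gab2 at 1.08 (adjusted p = 2.0e-09) and Ptpn11 at 0.68 (adjusted p = 9.5e-09). Gab2 was at 0.57 in siAPC (adjusted p = 7.9e-06), and its ratios differed by -0.51, not called (adjusted p = 0.27). Yes1, a Src family kinase, was higher in Ps of siAPC at 1.26 ± 0.28 (adjusted p = 0.00069), or 0.82 after loess. With Apc siRNA, 2 of the 37 rose and 3 fell in CB (7.52% and 5.87% of all genes), and 4 rose and 4 fell in Ps (10.7% and 11.2%). The docking proteins Gab1 (0.39 ± 0.091, adjusted p = 0.0069) and Gab2 (0.37 ± 0.082, adjusted p = 0.0043) rose in CB. Gab1 was at 0.32 in Ps (adjusted p = 0.016), a call lost after loess (0.23), while Gab2 was at -0.14 there and not called. Map2k1 was at -0.26 ± 0.079 in CB (adjusted p = 0.037), a call lost without siAPC CB replicate 2, 3 or 4 or siControl CB replicate 1, 2 or 4. It was lower in Ps as well, at -0.31 (adjusted p = 0.0081), outside the rule for named genes. In Ps, Frs2 was at 0.34 ± 0.089 (adjusted p = 0.0099) and the MAP kinase Mapk3 at -0.31 ± 0.071 (adjusted p = 0.0036), or -0.15 with total scaling, and the call of Frs2 was lost after loess (adjusted p = 0.061).

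Of 25 negative regulators 24 were listed, 12 of them lower and 2 higher in Ps of siControl (31.2% and 29.1% of all genes), with a median log2 ratio of -0.29. Lrig3 and Lrig1, transmembrane proteins of which Lrig1 lowers EGF receptor levels, were at -1.27 ± 0.14 SE (adjusted p = 3.1e-07) and -1.16 ± 0.091 (adjusted p = 2.8e-09), the latter at -0.63 after loess. Il17rd, also known as Sef, an inhibitor of FGF signalling, was at -1.16 ± 0.11 (adjusted p = 3.1e-08). Il17rd rose with Apc siRNA, 1.62-fold in CB (0.70 ± 0.11, adjusted p = 0.00018) and 1.95-fold in Ps (0.97 ± 0.11, adjusted p = 2.9e-06). Spred2, an inhibitor of the step from Ras to Raf, rose 1.66-fold in CB (0.73 ± 0.11, adjusted p = 0.00011) and 1.63-fold in Ps (adjusted p = 9.9e-05). Rasa1, which switches off Ras, was higher in Ps of siAPC at 1.02 ± 0.37 (adjusted p = 0.024), a call lost after loess (0.64) and without siAPC CB replicate 3 (0.90) or 4 (0.85) or siAPC Ps replicate 2 (0.81). In all, 3 of the 24 rose and 0 fell in CB (7.52% and 5.87% of all genes), and 5 rose and 2 fell in Ps (10.7% and 11.2%).

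Other receptor tyrosine kinases, Eph receptors left out, were also mostly lower in Ps. Of 35 on the list 17 had values, and in siControl 11 were lower and 2 higher (31.2% and 29.1% of all genes), with a median log2 ratio of -0.87 beside the -0.85 of the 9 receptors. Erbb3 and Ror2 were at -1.47 ± 0.21 SE (adjusted p = 7.4e-06) and -1.42 ± 0.12 (adjusted p = 1.1e-08), the latter at -0.82 after loess. The collagen receptor Ddr2 went the other way, 2.52-fold higher in Ps of siControl (1.33 ± 0.14, adjusted p = 2.0e-07) and at 0.93 ± 0.14 in siAPC (adjusted p = 1.9e-05), while its relative Ddr1 was at -1.18 in siControl (adjusted p = 5.7e-10) and at -1.14 ± 0.081 in siAPC (adjusted p = 1.4e-09), which loess moved to -0.50. Lmtk2 was at -1.12 ± 0.076 in siAPC (adjusted p = 8.9e-10), or -0.62 after loess. With Apc siRNA, 5 of the 17 rose and 1 fell in CB (7.52% and 5.87% of all genes), and 8 rose and 2 fell in Ps (10.7% and 11.2%). The rises in both fractions include Mst1r, with 20 reads in siControl CB and 1 in siControl Ps, and Mertk, with 5 and 2, which had most of their reads in siAPC and may pass a filter on low values only through it. Alk, another low RNA, is among the rises in Ps, with 16 reads in siControl Ps and 65 in siAPC Ps. Fgfrl1, an FGF receptor without a kinase domain, rose 1.79-fold in CB (0.84 ± 0.13, adjusted p = 0.00014) and 1.96-fold in Ps (adjusted p = 1.8e-05). Tyro3, the relative of Axl, rose 1.38-fold in CB (0.47 ± 0.077, adjusted p = 0.00034) and 1.56-fold in Ps (adjusted p = 6.8e-06). Flt1, a VEGF receptor, fell by 0.49 ± 0.10 in CB (adjusted p = 0.0029) and by 0.47 in Ps (adjusted p = 0.0024). Erbb3 rose 1.72-fold in Ps (0.78 ± 0.21, adjusted p = 0.012), or by 0.49 without siControl Ps replicate 1. Ddr2, taken up here after its values were seen, fell by 0.51 ± 0.14 in Ps (adjusted p = 0.016) and was at -0.11 in CB, not called. The Ps call was lost with total scaling (-0.34), with quantile normalization (-0.42) and without siAPC Ps replicate 4 (-0.44). Its Ps/CB log2 ratios differed by -0.40 ± 0.20, with an adjusted p of 0.98 and, over the alternatives, of 0.083 or more.

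Among co-receptors and processing enzymes, 11 of 17 were listed, and 8 were lower and 0 higher in Ps of siControl (31.2% and 29.1% of all genes), with a median log2 ratio of -0.91. The endocytic receptor Lrp1, a partner of Pdgfrb, was at -1.52 ± 0.11 SE (adjusted p = 1.5e-09), which loess moved to -0.67. Sdc1, a heparan sulfate carrier, was at -1.24 ± 0.098 (adjusted p = 3.4e-09) and Nrp2 at -1.05 ± 0.076 (adjusted p = 1.2e-09), the latter at -0.65 after loess. With Apc siRNA, 4 of the 11 rose and 1 fell in either fraction, beside 7.52% and 5.87% of all genes in CB and 10.7% and 11.2% in Ps. Sdc2 rose 1.51-fold in CB (0.60 ± 0.077, adjusted p = 2.1e-05) and 1.85-fold in Ps (adjusted p = 1.2e-07). Igf2r, which clears IGF-2, rose 1.28-fold in CB (0.36 ± 0.075, adjusted p = 0.0027) and 1.36-fold in Ps (adjusted p = 0.00028). Nrp1 rose 1.73-fold in Ps (0.79 ± 0.16, adjusted p = 0.0018), and its CB value of 0.53 ± 0.16 (adjusted p = 0.039) was no longer called without any 1 of the siAPC CB libraries or siControl CB replicate 1, 2 or 4. No gene of these 6 lists was called in the interaction.

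Over the 16 libraries, each receptor was matched with the genes most like it by Pearson's r among 9537 named genes. Pdgfrb went with Tsku (r = 0.993) and Fam20a (0.992), Fgfr1 with Ssc5d and PCDHGB6 (both 0.995), and Axl with Mogs (0.997) and Ano6 (0.996). Fgfr2 went with Slc6a7 (0.966) and Lgi4 (0.963), Pdgfra with Il6st (0.982) and Sqle (0.980), and Igf1r with Slc7a5 (0.988) and Pvrl1 (0.987). Met went with Bmpr2 (0.974) and Cped1 (0.970), Insr with Fryl (0.952) and Tmem245 (0.950), and Egfr with Oser1 (0.902) and Mrgprd (0.896). These r values describe 4 groups of libraries that share depth and base composition, and carry no test.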

How the data were processed

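The authors sequenced paired reads, aligned them with STAR (2.4.2a) to mm10, counted them per gene with Rsubread and a GENCODE annotation, and applied limma-voom (limma 3.26.1). The deposited values are log2 CPM, where CPM holds 0.5 added reads and a scaling between libraries. Inverting them gave whole reads (tolerance 0.01) for 100% of 208240 values. A strand setting of the counting is not given in the sources used here, so overlapping genes are uncertain. Groups came from the labels for fraction and siRNA. limma 3.58.1 (lmFit, eBayes with trend) fitted 1 mean per group over 16 libraries, with Benjamini-Hochberg adjustment over 13015 genes and a threshold of 0.05, and was tested on simulated data. Alternatives were a replicate block, total scaling, quantile normalization, loess on GC content and length, voom weights, 2 added reads, a mean log2 of at least 1, each library left out, and the 4 libraries that fell with GC content left out.

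Exon lengths, GC content and positions came from GENCODE M21 (GRCm38), which matched 12872 genes (98.9%) by symbol. From each gene list the text names up to 3 genes per comparison with the largest change among those past the threshold with a mean log2 of at least 1, and for each receptor the 2 genes with the highest r. Members and lists were chosen with earlier results of these data known. Reads carry no molecular identifiers, so the floor of 3 reads covers counting error only.

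Deviations from the group mean of same-numbered libraries correlated at 0.416 to 0.617 between siAPC CB and siAPC Ps (10292 genes). Between siControl Ps and siAPC Ps they correlated at 0.162 to 0.551, so the numbers were read as pairs in these groups. That pairing entered only the replicate block and the differences of same-numbered libraries, and the main fit held no block. In siControl CB, numbers 2 and 3 were at -0.121 with siControl Ps and at -0.336 and -0.324 with siAPC CB. Numbers 1 and 4 were at 0.256 to 0.432. Whether numbers 2 and 3 of siControl CB match those of the other groups is thus in doubt.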

Additional observations from a re-analysis of the deposited data

Results flagged for a closer look

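A library stood apart from the other 3 of its group in 4 of the 36 combinations of receptor and group, judged by the gap to its nearest neighbour relative to the range of the group (Dixon's 95% limit), which chance alone gives in about 1 in 20. Fgfr2 was at 2.01 log2 CPM in siAPC Ps replicate 4, where the other replicates lay between 1.82 and 1.85. Egfr was at 3.01 in siAPC CB replicate 2, with the others at up to 2.57. Met was at 3.62 in the same library, with the others at up to 3.10. Axl was at 9.79 in siControl CB replicate 3, below the 9.97 to 9.99 of the others. The Egfr, Met and Axl values came from libraries that fell with GC content, and the part of that trend in these values was not tested.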

How the results depend on the processing

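Of 1080 recomputed member fold changes, 1014 kept their direction and their side of the threshold, 10 lost a call, 14 gained one and 42 changed sign, none of these while called in either fit. The median log2 ratio of all genes in Ps against CB moved to -0.30 in siControl and -0.14 in siAPC with total scaling. The replicate block changed no member count (0 higher and 7 lower for Ps against CB with either siRNA, 3 and 1 for siAPC in CB, 4 and 0 in Ps) and no other member call, and the call of Nrp1 in CB was lost with it (adjusted p = 0.0502), where the numbers did not pair. The block is of limited use for siControl CB, whose numbers 2 and 3 are in doubt. Fgfr2 has under 40 reads per siControl library, which limits its precision.

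The number of receptors higher in Ps became 1, Met, without the 4 libraries that fell with GC content, with either siRNA, and ranged from 0 to 1 when single libraries were left out. Receptors lower with siAPC became 3 in CB and 3 in Ps after loess, and ranged from 1 to 1 in CB and 0 to 1 in Ps with single libraries left out. Neighbours apart in level per kb numbered 6 of 8 by longest transcript and 8 without the libraries that fell with GC content.

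Signs turned as follows (log2), where the cause was not tested. With total scaling, the difference of Ps/CB ratios was 0.13 for Fgfr1, 0.11 for Igf1r and 0.12 for Axl, siAPC in Ps was 0.0039 for Fgfr1 and 0.039 for Axl, siAPC in CB was 0.017 for Insr, and Ps/CB in siControl was -0.050 for Met and -0.0061 for Igfbp4. With quantile normalization, the difference was 0.035 for Fgfr1, siAPC in CB was 0.017 for Insr and 0.089 for Axl, siAPC in Ps was 0.0061 for Axl, and Ps/CB of Igfbp4 was -0.45 in siControl and -0.41 in siAPC. With loess, the difference was 0.015 for Fgfr1 and 0.0029 for Axl, Ps/CB was 0.089 for Fgfr2 in siControl and -0.11 for Fgf7 in siAPC, siAPC in CB was 0.011 for Insr, and siAPC in Ps was -0.035 for Met. Without the 4 libraries that fell with GC content, siAPC in CB was 0.084 for Insr and 0.036 for Ddr2, siAPC in Ps was -0.024 for Met, and the difference was 0.0071 for Axl. With single libraries left out, the difference ranged from -0.089 to 0.064 for Fgfr1, -0.10 to 0.062 for Igf1r, -0.094 to 0.42 for Met and -0.046 to 0.030 for Axl. In the same way siAPC in CB ranged from -0.033 to 0.18 for Egfr, -0.065 to 0.076 for Insr, -0.40 to 0.12 for Met and -0.22 to 0.090 for Ddr2, and siAPC in Ps from -0.14 to 0.14 for Met.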

Other observations

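Several genes of the same lists lay below a mean log2 of 1, outside the rule for named genes, and were picked out after their values were seen. Mst1r, the receptor of macrophage stimulating protein and closest relative of Met, had 6, 5, 7 and 2 reads in siControl CB and 43, 47, 67 and 67 in siAPC CB. In siControl Ps it had 1 read in all 4 libraries together, and in siAPC Ps 10, 16, 27 and 30. Mertk, the relative of Axl and Tyro3, had 5 reads in siControl CB and 29 in siAPC CB. Igf1, a ligand of Igf1r, had 1 read in siControl CB and 5 in siControl Ps, against 21 and 47 in siAPC, and with both siControl groups at or under 3 reads per library no fold is given. Pdgfb, which encodes a ligand chain of Pdgfrb, had 109 reads in siControl CB and 234 in siAPC CB, and 40 and 90 in Ps (limma adjusted p = 0.011 in CB and 0.020 in Ps). Spry1, an inhibitor of receptor tyrosine kinase signalling, had 64 reads in siControl CB and 136 in siAPC CB (adjusted p = 0.030). In Ps it had 22 reads in siControl and 84 in siAPC (adjusted p = 0.0010).

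Dcn, a small proteoglycan of the fibroblast marker list that is known to bind Egfr and Met, rose from 139 to 1045 reads in CB and from 95 to 1003 in Ps (limma log2 fold change 2.90 and 3.10, adjusted p = 5.7e-09 and 1.9e-09).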
